A study of Mus musculus with 20 samples.

Results

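The genes described here are 5 genes of ketone body use that are read by 7 of the 45281 probes on the arrays, out of 19057 genes named there: *Bdh1* and *Oxct1* with 2 probes each, and *Bdh2*, *Acat1* and *Slc16a1* with 1 probe each. They were chosen by gene symbol. *Bdh1* had been singled out by its difference between sham DKO and sham CTL hearts, and the other 4 genes are its partners in the same pathway. RNA of cardiac ventricle was measured on Illumina bead chips, with 1 array per mouse, in 6 TAC DKO, 6 TAC CTL, 4 sham DKO and 4 sham CTL hearts. DKO hearts carried floxed alleles of the DNA methyltransferases *Dnmt3a* and *Dnmt3b* (fl/fl at both genes) together with a Cre recombinase driven by the promoter of atrial myosin light chain (MLC2a), which is active in cardiomyocytes. CTL hearts carried the same floxed alleles without Cre. All mice were male, were operated at 10 to 12 weeks of age and gave tissue 4 weeks later, at 14 to 16 weeks. TAC, transverse aortic constriction, loads the left ventricle with pressure, and sham mice had the operation without the constriction. Cre acts in cardiomyocytes, recombination in the study was not complete, and the RNA came from whole tissue with all its other cells. In such bulk RNA, fewer cells of a type and less RNA per cell cannot be told apart. Because *Bdh1* was picked from the sham arrays, its sham values and everything that uses them are given below as a description without a test.

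Ketone bodies are made mainly in the liver, travel in the blood and are burned by the heart and other organs. *Slc16a1* encodes MCT1, a transporter that carries ketone bodies and lactate through the cell membrane. *Bdh1* encodes the mitochondrial enzyme that interconverts beta-hydroxybutyrate and acetoacetate, and *Bdh2* encodes a cytosolic enzyme of related activity. *Oxct1* encodes the transferase (SCOT) that activates acetoacetate with coenzyme A taken from succinyl-CoA, the committed step of ketone use outside the liver, and *Acat1* encodes the mitochondrial thiolase that cleaves acetoacetyl-CoA to acetyl-CoA. DNMT3A and DNMT3B place methyl groups on cytosines that stand before a guanine (CpG).

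The bases upstream of the *Bdh1* start sites are shown because CpG cytosines are what the deleted enzymes act on. RefSeq gives 2 starts for mouse *Bdh1*, and each window below covers the 250 bases before a start on the plus strand of GRCm38.p6, in lower case with each CG in capitals.
Bdh1, chr16:31422047-31422296: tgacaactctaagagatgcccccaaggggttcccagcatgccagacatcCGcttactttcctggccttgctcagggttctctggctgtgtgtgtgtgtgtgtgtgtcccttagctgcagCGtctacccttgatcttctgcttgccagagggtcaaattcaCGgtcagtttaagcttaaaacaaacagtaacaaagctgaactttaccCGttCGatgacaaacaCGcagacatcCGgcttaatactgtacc
Bdh1, chr16:31428503-31428752: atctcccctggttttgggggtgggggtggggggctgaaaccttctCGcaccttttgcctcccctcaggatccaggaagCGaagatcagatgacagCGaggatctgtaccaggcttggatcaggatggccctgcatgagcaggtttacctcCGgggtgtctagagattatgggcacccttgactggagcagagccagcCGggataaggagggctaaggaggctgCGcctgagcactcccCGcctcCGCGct
These windows held 7 and 9 CGs, and 46.3% and 40.3% of the 32851 windows of the same length in the table held at least as many. The window of *Slc16a1* was the CpG-rich one among the genes described here, with 37 CGs, a number reached by 2.2% of windows. *Oxct1* had 6 CGs (50.4% of windows held at least as many) and *Bdh2* had 5 (55.6%). *Acat1* was not matched. The site of the estrogen-related receptors (TNAAGGTCA) and the PPAR element (AGGTCA repeated after a spacer of any single base, which shares these letters with the other site) were searched on both strands. They were present in 1.14% and 0.0335% of all windows and in 0 of the windows of *Bdh1*, *Bdh2*, *Oxct1* and *Slc16a1*. Methylation was not analysed here.

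All values below are linear intensities normalized over the 20 arrays, and group values are mean ± SD. An intensity belongs to 1 probe, so levels are compared between groups and not between genes. The median probe had an intensity of 53.9, and a probe whose group mean was under 1.5 times that value (80.8) is called near background here. The sham and the TAC arrays had been normalized by the authors as separate sets, so surgery and set cannot be told apart, and every TAC effect below carries this limit. Nothing in the labels says how the mice were spread over chips or days, and the number of arrays limits the precision. As a check of the surgery labels, *Nppa*, which encodes atrial natriuretic peptide, was higher after TAC by 1.32 on the log2 scale in DKO hearts (adjusted p = 0.00265) and by 2.24 in CTL hearts (adjusted p = 1.26e-05, limma). The 3 *Dnmt3a* probes lay near background, and neither they nor the 2 *Dnmt3b* probes differed between genotypes (adjusted p of at least 0.751). They cannot be placed against the deleted exons and therefore check nothing about the genotype labels. As a check of the tissue label, *Myh6*, the main myosin of adult mouse cardiomyocytes, averaged at least 17696 in each group.

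**Figure D1:**
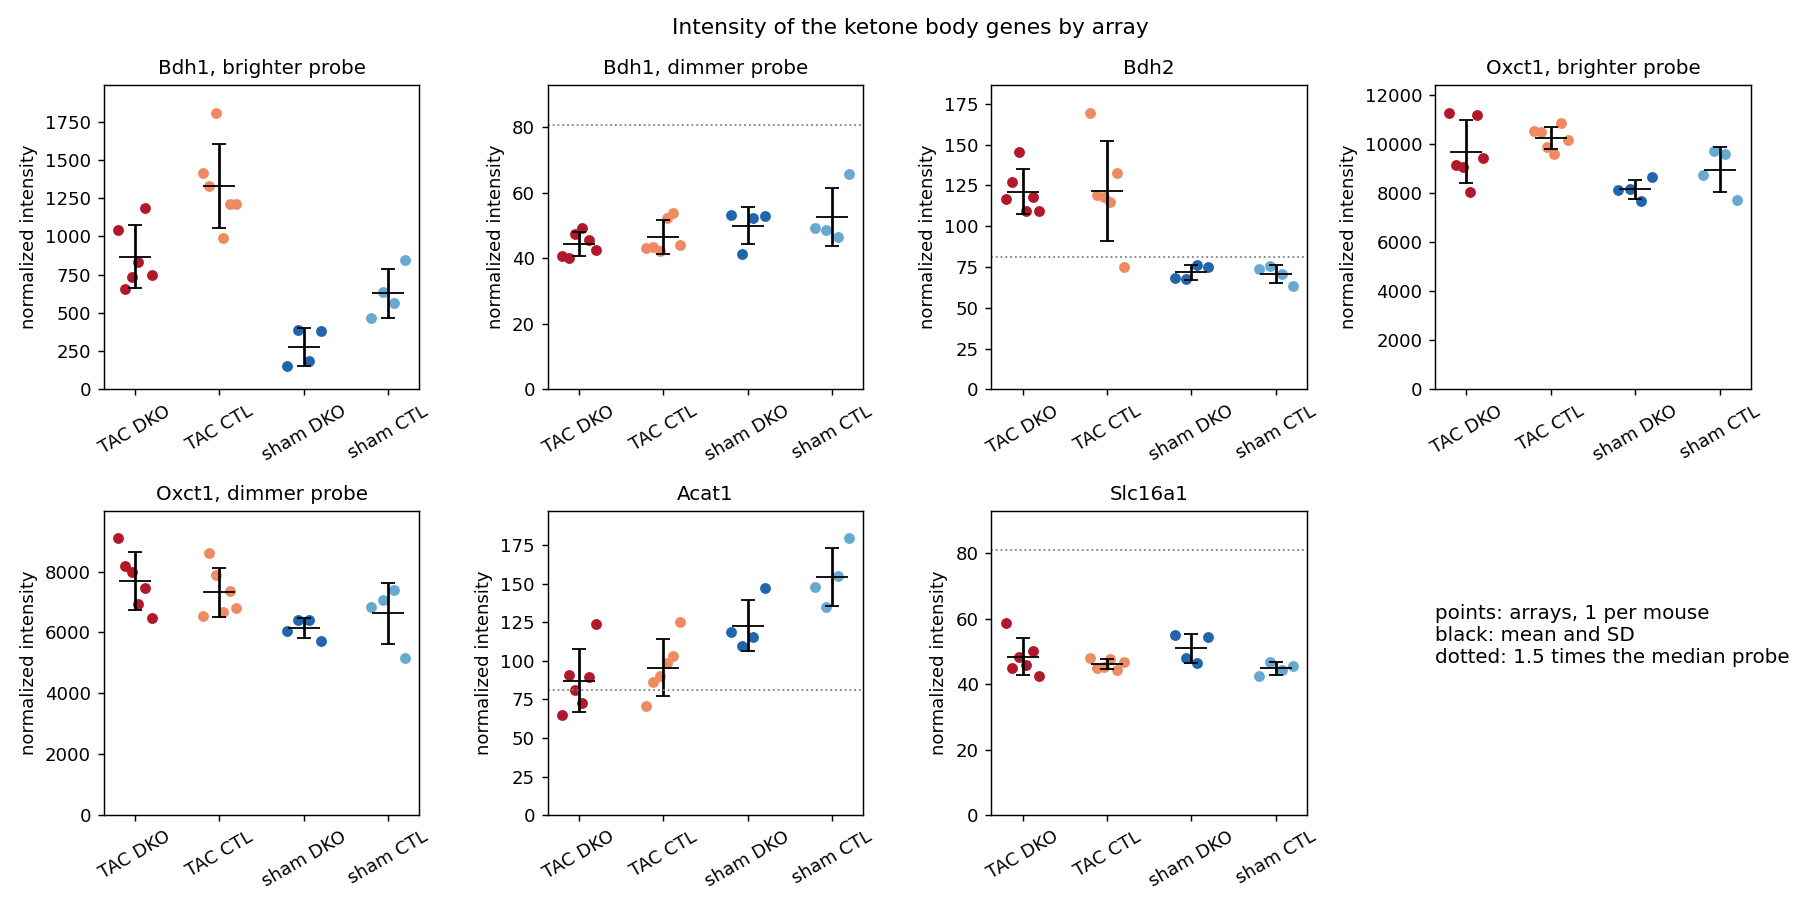
Normalized intensity (linear axes from 0) of the 7 probes on each array, by group; points are arrays, and black bars are the mean and SD. *Bdh1* (brighter probe) was lowest in sham DKO hearts (151 to 391) and highest in TAC CTL hearts (993 to 1811), while the dimmer *Bdh1* probe and *Slc16a1* stayed under the dotted limit of 80.8 on every array.

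In the group means of its brighter probe, which are described here without a test, *Bdh1* differed between genotypes and between operations. Its brighter probe averaged 868 ± 205 in TAC DKO hearts and 1329 ± 275 in TAC CTL hearts (n = 6 each), and 276 ± 126 in sham DKO hearts and 629 ± 159 in sham CTL hearts (n = 4 each). The 6 TAC DKO arrays read from 657 to 1189 with a median of 792, and the 6 TAC CTL arrays from 993 to 1811 with a median of 1273. The 4 sham DKO arrays read 151, 391, 185 and 378. The 4 sham CTL arrays read 469, 634, 568 and 846. Within each operation the DKO mean was the lower one, and within each genotype the TAC mean was the higher one. The order of the group means was TAC CTL, TAC DKO, sham CTL and sham DKO. Of the neighbours in that order, TAC CTL and TAC DKO shared the range from 993 to 1189, and TAC DKO and sham CTL shared the range from 657 to 846. The lowest sham CTL array (469) lay above the highest sham DKO array (391). The sham DKO arrays were also the most uneven group, with a coefficient of variation of 45.6%, against 20.7 to 25.4% in the other groups.

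In sham hearts, where *Bdh1* was singled out, DKO hearts differed from CTL hearts by -1.28 ± 0.25 on the log2 scale (SE), so that the level in sham CTL hearts was 2.42 times that in sham DKO hearts. This is a description of the contrast that chose the gene. In sham hearts the arrays of both genotypes overlapped for all 6 other probes, but the share of all probes that overlap was not counted. *Acat1* differed by -0.33 ± 0.16 and both *Oxct1* probes by -0.13 ± 0.09 and -0.09 ± 0.11. *Bdh2* and *Slc16a1* lay near background in both sham groups. Of the 4 other genes, 0 were called in this contrast, in which 0.102% of all probes were called (adjusted p under 0.05 and a fold over 1.5, the thresholds of the study's methods). Some sums of cell type markers, and some single marker genes, differed in the same sham arrays. The 5 measured smooth muscle markers summed to 3629 to 4853 in sham DKO hearts and to 5145 to 7104 in sham CTL hearts, without overlap, most of the sum being *Acta2* (3137 in sham DKO, 4679 in sham CTL). Taken singly, 0 of these 5 genes passed in limma, and 1 had an unadjusted p under 0.05. *Cnn1*, near background, ran the other way (54.3 in sham DKO, 49.0 in sham CTL). The 6 measured of 7 adipocyte markers summed to 538 to 589 in sham DKO hearts and to 631 to 667 in sham CTL hearts, also without overlap, but this difference was carried by *Cidea* alone (300.1 in sham DKO, 376 in sham CTL): *Adipoq*, *Plin1*, *Retn* and *Ucp1* were near background, and *Adipoq* averaged 55.6 in sham DKO and 53.9 in sham CTL hearts. Of the 6 atrial markers, *Stard10* was higher in sham DKO hearts by 1.12 on the log2 scale (adjusted p = 0.00878 in limma). *Mybphl* averaged 608 ± 485 in sham DKO and 60.9 ± 2.16 in sham CTL hearts (adjusted p = 0.0819 in limma). After TAC, the sums of both lists overlapped between genotypes (smooth muscle 5045 to 11050 in TAC DKO and 5088 to 9950 in TAC CTL; adipocyte 636 to 825 in TAC DKO and 741 to 832 in TAC CTL). Skeletal muscle markers had a list median of -0.60 in the sham genotype contrast, and 0 of 11 passed. Several of them were very uneven in sham CTL hearts, the reference group of this contrast (*Pvalb* 379 ± 613, *Tnni2* 204 ± 254). The part of these markers in the *Bdh1* values was not tested.

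Since *Bdh1* was singled out in sham hearts, the TAC arrays give a look at the genotype difference in other mice. The genes were chosen with earlier results of these data known, so this look may not be independent of the choice. TAC DKO hearts were lower than TAC CTL hearts by -0.62 ± 0.21 on the log2 scale (95% interval from -1.05 to -0.19), the level in TAC CTL hearts being 1.54 times that in TAC DKO hearts. The exact permutation test of the 6 against 6 arrays gave p = 0.0108 (two-sided, 924 regroupings, smallest possible p 0.00216). In the limma fit across all 45281 probes the difference did not pass (adjusted p = 0.336 after Benjamini-Hochberg adjustment), and 0.316% of probes passed in that comparison. The exact test was run on all 7 probes without adjustment for their number, and the other 6 gave p = 0.305 to 0.866 by the same permutation. Without any single array the log2 difference stayed between -0.72 and -0.53. Markers of cardiomyocytes, which are the cells in which Cre acts, summed to 86682 to 108281 in TAC DKO hearts and to 95462 to 109670 in TAC CTL hearts. Some genes of the atrial and fibroblast marker lists differed between the same arrays. Of the 6 atrial markers, which had a median log2 difference of 1.07, *Stard10* was higher in TAC DKO hearts by 0.91 (adjusted p = 0.0048) and 4 of 6 had an unadjusted p under 0.05 in limma. *Nppa* (0.26) and *Myl7* (0.17, near background) did not. *Myl4* averaged 1352 ± 1816 in TAC DKO and 339 ± 276 in TAC CTL hearts (adjusted p = 0.368 in limma). *Mybphl* averaged 396 ± 430 in TAC DKO and 62.1 ± 9.76 in TAC CTL hearts (adjusted p = 0.1005 in limma). For both genes the SD in TAC DKO hearts was larger than the mean, so the arrays of that group were very uneven. The fibroblast marker *Tcf21* was higher in TAC DKO hearts by 0.36 (adjusted p = 0.0282), 1 of 7 markers of that list to pass. Whether these genes differed through cell numbers or through RNA per cell, and their part in the *Bdh1* difference after TAC, was not tested.

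*Bdh1* was higher after TAC than after sham surgery in both genotypes. TAC DKO hearts differed from sham DKO hearts by 1.74 ± 0.23 on the log2 scale (3.35-fold), and TAC CTL hearts from sham CTL hearts by 1.09 ± 0.23 (2.13-fold). The arrays of TAC and sham hearts did not overlap in either genotype. The difference of the genotype effects (after TAC minus sham) was 0.65 ± 0.33 on the log2 scale. With median centring of the arrays in place of quantile normalization, the CTL value was 0.61. These values use the sham arrays and carry no test.

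The second *Bdh1* probe showed none of this. It averaged 44.3 ± 3.70 in TAC DKO, 46.6 ± 5.17 in TAC CTL, 50.0 ± 5.71 in sham DKO and 52.6 ± 8.91 in sham CTL hearts and lay near background in every group, with no single array above 65.9. The 2 probes of *Bdh1* therefore did not give the same picture, and the values for *Bdh1* rest on the brighter probe. The array annotation used here does not place the probes on transcripts of the gene.

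**Figure D2:**
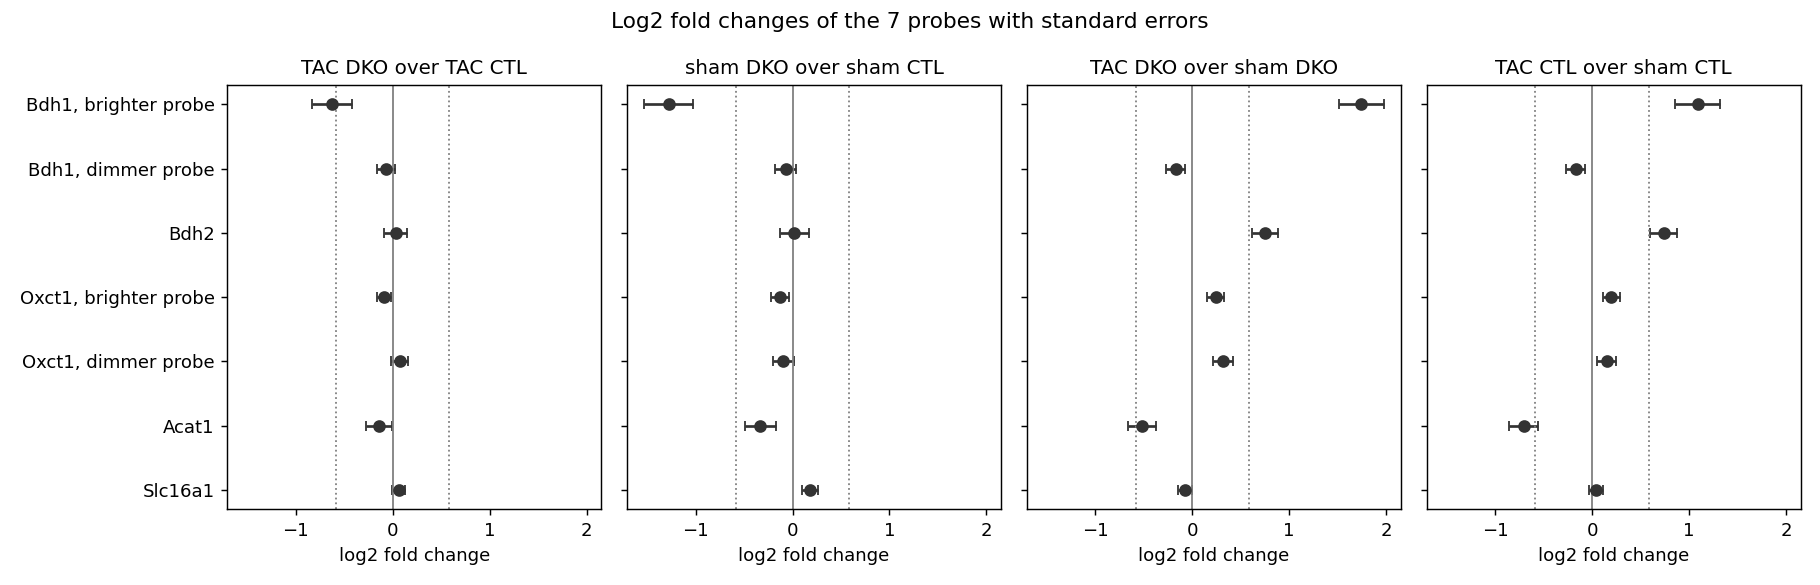
Log2 fold changes of the 7 probes in 4 comparisons (x axis), with bars of 1 standard error; dotted lines mark a fold of 1.5 either way. *Bdh1* (brighter probe) was lower in DKO than in CTL hearts by -0.62 after TAC and -1.28 in sham hearts, and the other 6 probes lay between -0.33 and 0.18 in both genotype comparisons.

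*Bdh2*, the cytosolic enzyme, rose with TAC in both genotypes and showed no genotype difference. The 6 TAC DKO arrays read from 109 to 146 with a median of 117, and the 6 TAC CTL arrays from 74.7 to 170 with a median of 118. The 4 sham DKO arrays read 68.2, 67.4, 76.2 and 75.2, and the 4 sham CTL arrays 74.0, 75.8, 70.6 and 63.2. All sham arrays thus lay under 80.8, and TAC CTL replicate 6 (74.7) was the 1 TAC array that lay among them. The rise was 0.75 ± 0.14 on the log2 scale in DKO hearts (adjusted p = 0.000191) and 0.74 ± 0.14 in CTL hearts (adjusted p = 0.000298). Since the sham groups were near background, these folds (1.68 in DKO, 1.67 in CTL) may understate the change. TAC DKO and TAC CTL hearts averaged 121 ± 13.7 and 121 ± 30.7, with a difference of 0.03 ± 0.12 (95% interval from -0.23 to 0.28, adjusted p = 0.968), whose sign turned without TAC CTL replicate 6 (-0.10) or TAC DKO replicate 3 (-0.03).

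*Oxct1*, the transferase of the committed step, was bright on both probes and changed little. The brighter probe averaged 9689 ± 1291 in TAC DKO, 10245 ± 457 in TAC CTL, 8149 ± 398 in sham DKO and 8944 ± 920 in sham CTL hearts. The dimmer probe averaged 7688 ± 938, 7312 ± 807, 6150 ± 329 and 6622 ± 993 in TAC DKO, TAC CTL, sham DKO and sham CTL hearts. In DKO hearts the TAC effect passed on both probes, by 0.24 ± 0.08 (adjusted p = 0.0350) and 0.31 ± 0.10 (adjusted p = 0.0218), but its sign turned to -0.20 and -0.15 with median centring of the arrays. In CTL hearts the values were 0.20 ± 0.08 (adjusted p = 0.0935) and 0.15 ± 0.10 (adjusted p = 0.329), and with median centring -0.22 and -0.32. A direction of the TAC effect on *Oxct1* therefore depended on the scaling. The genotype difference after TAC was -0.09 ± 0.08 on the brighter probe (95% interval from -0.25 to 0.07, adjusted p = 0.775) and 0.07 ± 0.09 on the dimmer one (from -0.12 to 0.26, adjusted p = 0.871).

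With TAC, *Acat1*, the thiolase of the last step, moved against *Bdh1* and *Bdh2*. In both genotype comparisons its value had the same sign as that of *Bdh1*. The 6 TAC DKO arrays read from 64.7 to 124 with a median of 85.3, and the 6 TAC CTL arrays from 70.6 to 125 with a median of 94.2. The 4 sham DKO arrays read 119, 110, 115 and 147, and the 4 sham CTL arrays 148, 135, 155 and 179. Every TAC CTL array lay below every sham CTL array, whereas TAC DKO replicate 6 (124) lay among the sham DKO arrays. *Acat1* fell by 0.52 ± 0.15 on the log2 scale with TAC in DKO hearts (adjusted p = 0.0108) and by 0.70 ± 0.15 in CTL hearts (adjusted p = 0.00107). Without sham DKO replicate 4, the highest of its group, the fall in DKO hearts no longer passed (adjusted p = 0.0542). The genotype difference after TAC was -0.14 ± 0.13 (95% interval from -0.42 to 0.13, adjusted p = 0.806).

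*Slc16a1*, the transporter, averaged 48.4 ± 5.74 in TAC DKO, 46.1 ± 1.52 in TAC CTL, 50.9 ± 4.35 in sham DKO and 44.8 ± 1.86 in sham CTL hearts. All of these means were near background, so this probe gives no readable difference at this signal. None of the comparisons tested for it passed (adjusted p of at least 0.475).

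Among *Bdh2*, *Oxct1*, *Acat1* and *Slc16a1*, 1 gene was called for TAC in DKO hearts (*Bdh2*) and 2 in CTL hearts (*Bdh2* and *Acat1*), against 6.74% and 5.17% of all probes. Without the fold minimum 3 of the 4 genes passed in DKO hearts, where 28% of all probes passed (15.4% higher and 12.7% lower), and 2 in CTL hearts, where 22% did (11.7% higher and 10.2% lower). For the genotype difference after TAC 0 of the 4 genes were called by limma (0 at an unadjusted p under 0.05), with 0.144% of all probes called. The interaction of genotype and surgery passed for none of the 4 genes (adjusted p of at least 0.942), with 0.00221% of all probes passing (1 probe, with 2132 at an unadjusted p under 0.05). Sums of cell type markers differed with surgery too. The 7 measured of 8 cardiomyocyte markers summed to 86682 to 108281 in TAC DKO against 120144 to 125022 in sham DKO hearts, and to 95462 to 109670 in TAC CTL against 118795 to 128045 in sham CTL hearts. Of these 7 genes 5 fell and 1 rose in DKO hearts, and 4 fell and 0 rose in CTL hearts. *Myl2* averaged 29710 in TAC DKO against 25843 in sham DKO hearts, and 28149 in TAC CTL against 25651 in sham CTL hearts. The 2 measured of 3 red blood cell markers summed to 22917 to 27230 in TAC DKO against 12438 to 22046 in sham DKO hearts, and to 19191 to 24248 in TAC CTL against 7316 to 16978 in sham CTL hearts. Sums of 2 further lists were higher after TAC in both genotypes without overlap, but mainly through 1 gene each that also belongs to the pressure load genes. The atrial sum was 26097 to 36307 in TAC DKO against 8113 to 18669 in sham DKO hearts and 9102 to 33022 in TAC CTL against 3195 to 8391 in sham CTL hearts, most of it *Nppa*, while *Stard10* fell by 0.97 in DKO (adjusted p = 0.000158) and 0.76 in CTL hearts (adjusted p = 0.00235). The skeletal muscle sum (11 of 12 measured) was 15038 to 25738 in TAC DKO against 6108 to 14742 in sham DKO hearts and 20462 to 26233 in TAC CTL against 6531 to 15204 in sham CTL hearts, through *Acta1*. The list median was -0.12 in DKO and -0.63 in CTL hearts, and 0 of the other 10 genes passed. Several of these genes were very uneven in sham CTL hearts, with an SD above the mean for *Pvalb* (379 ± 613), *Tnnc2* (161 ± 232) and *Tnni2* (204 ± 254). The CTL values of this list carry that unevenness. The adipocyte sum was also higher after TAC without overlap, at 636 to 825 in TAC DKO against 538 to 589 in sham DKO hearts and 741 to 832 in TAC CTL against 631 to 667 in sham CTL hearts, with *Cidea* up by 0.48 in DKO (adjusted p = 0.000854) and 0.46 in CTL hearts (adjusted p = 0.00154). In DKO hearts alone, the smooth muscle sum (5045 to 11050 in TAC DKO, 3629 to 4853 in sham DKO) and the leukocyte sum (5 of 6 measured, 422 to 480 in TAC DKO, 554 to 638 in sham DKO) did not overlap. The part of these markers in the TAC effects was not tested.

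Other genes around ketone body use were read by the brightest probe of each gene. Of 18 such genes 14 were measured, of which 10 were near background in all groups. In a genotype comparison 0 passed (0 at an unadjusted p under 0.05 after TAC and 1 in sham hearts, limma). With TAC 2 rose and 3 fell in each genotype, where 28% of all probes passed in DKO and 22% in CTL hearts. These counts moved with the scaling, to 1 rising and 3 falling in DKO and 0 and 3 in CTL hearts with median centring, and to 8 and 2 in DKO and 9 and 2 in CTL hearts with the deposited values, whose median over all probes was itself shifted by 0.29 in DKO and 0.28 in CTL hearts. The median log2 fold change of the 14 was 0.07 in DKO and 0.06 in CTL hearts, against 0.02 and 0.01 over all probes. *Slc16a6*, a transporter of the same family as MCT1 that exports ketone bodies in zebrafish liver, averaged 73.2 in TAC DKO and 74.9 in TAC CTL, against 128 in sham DKO and 125 in sham CTL hearts, and fell by 0.81 in DKO (adjusted p = 4.72e-07) and 0.72 in CTL hearts (adjusted p = 3.26e-06). Both of its TAC means were near background. *Acss1*, a mitochondrial acetyl-CoA synthetase, fell by 0.31 in DKO (adjusted p = 0.00891) and by 0.36 in CTL hearts (adjusted p = 0.00294). The cytosolic acetyl-CoA synthetase *Acss2* averaged 1073 in TAC DKO and 972 in TAC CTL, against 800.0 in sham DKO and 667 in sham CTL hearts, with log2 changes of 0.42 (adjusted p = 0.00658) and 0.55 (adjusted p = 0.000815) that became -0.07 and 0.06 with median centring. The third gene that fell, the butyrate and beta-hydroxybutyrate receptor *Hcar2*, was near background, as were *Slc16a7*, which passed upward in DKO hearts, and *Emb*, which passed upward in CTL hearts.

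Genes of the pathway into which ketone carbon flows, the citric acid cycle, fell with TAC in both genotypes. Of 17 measured genes of the citric acid cycle and succinyl-CoA handling, 12 fell and 2 rose in each genotype, with a median of -0.66 in DKO and -0.49 in CTL hearts. Of all probes, 12.7% fell and 15.4% rose in DKO hearts, and 10.2% fell and 11.7% rose in CTL hearts. The median of all probes was near background, unlike most genes of this list, and no share for probes of like brightness was taken. *Dld*, the shared dehydrogenase subunit of the pyruvate and oxoglutarate complexes, averaged 191 in TAC DKO and 276 in TAC CTL, against 1099 in sham DKO and 1125 in sham CTL hearts. *Cs*, citrate synthase, which takes up the acetyl-CoA made by *Acat1*, fell by 1.08 in DKO (adjusted p = 2.35e-07) and by 0.85 in CTL hearts (adjusted p = 8.53e-06). *Sucla2*, a subunit of the succinyl-CoA synthetase that works on the same succinyl-CoA as SCOT, fell by 1.21 in DKO and by 1.05 in CTL hearts and was near background after TAC. The 2 genes that passed upward, *Ogdh* and *Dlst*, are both subunits of the oxoglutarate dehydrogenase complex (0.32 and 0.30 in DKO, 0.24 and 0.37 in CTL hearts) and were named after their values were seen. Their sign turned with median centring (-0.14 and -0.16 in DKO, -0.23 and -0.10 in CTL hearts).

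Of 22 measured genes of fatty acid oxidation, the competing fuel pathway, 12 fell and 1 rose in DKO hearts and 11 fell and 0 rose in CTL hearts, with medians of -0.46 in DKO and -0.24 in CTL hearts. *Hadhb*, a subunit of the mitochondrial trifunctional protein, averaged 4313 in TAC DKO and 5460 in TAC CTL, against 11460 in sham DKO and 12288 in sham CTL hearts. Of 15 measured PPARA and fasting targets, 9 fell and 1 rose in each genotype, with medians of -0.49 in DKO and -0.45 in CTL hearts. Of all probes, most of them dimmer, 12.7% fell in DKO and 10.2% in CTL hearts. The medians of these lists and of the citric acid cycle were further below 0 with median centring and with the deposited values. Among them *Pdk4*, the kinase that shuts off pyruvate dehydrogenase, fell by 1.63 in DKO (adjusted p = 0.000254) and 1.43 in CTL hearts (adjusted p = 0.00132), and *Acot1*, a cytosolic acyl-CoA thioesterase, fell by 1.79 in DKO (adjusted p = 0.000298) and 1.58 in CTL hearts (adjusted p = 0.00133). *Bdh1* and *Bdh2* stood on the other side of 0 from most genes of these lists. In the genotype comparisons after TAC and in sham hearts, 0 genes of these 3 lists passed in limma. At an unadjusted p under 0.05 there were 3 citric acid cycle, 3 fatty acid oxidation and 1 fasting gene after TAC, and 0, 1 and 1 in sham hearts.

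**Figure D3:**
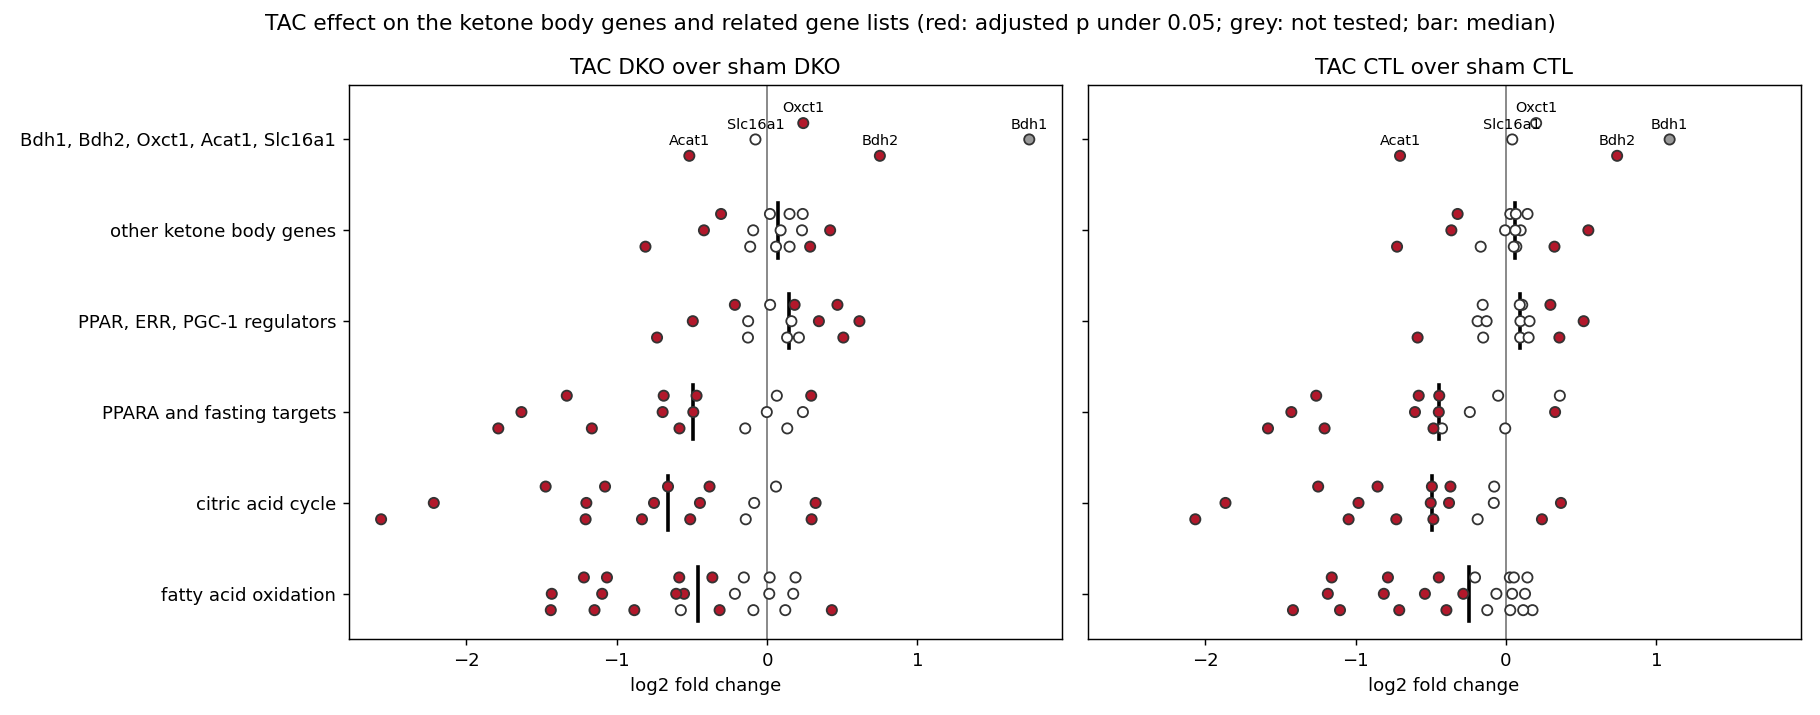
Log2 fold changes with TAC (x axis) in DKO and CTL hearts of the 5 ketone body genes (brightest probe) and of 5 related gene lists; each point is a gene, red points passed an adjusted p of 0.05, *Bdh1* is grey because it was not tested, and bars are list medians. *Bdh1* and *Bdh2* lay right of 0 in both genotypes, while the medians of the citric acid cycle (-0.66 in DKO, -0.49 in CTL) and fatty acid oxidation (-0.46 in DKO, -0.24 in CTL) lay left of it.

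Regulators of these pathways passed in both directions. Of 14 measured genes of the PPAR, ERR and PGC-1 group, 5 rose and 3 fell with TAC in DKO hearts and 3 rose and 1 fell in CTL hearts (8 of 14 in DKO, where 28% of all probes passed, and 4 of 14 in CTL, near the 22% of all probes), but with median centring 1 rose and 8 fell in DKO and 0 rose and 8 fell in CTL hearts, and 0 passed in a genotype comparison (4 at an unadjusted p under 0.05 after TAC and 4 in sham hearts, limma). *Ppargc1b*, a coactivator of mitochondrial genes, rose by 0.61 in DKO (adjusted p = 7.03e-05) and 0.52 in CTL hearts (adjusted p = 0.000611), values that shrank to 0.13 and 0.03 with median centring. *Sirt3*, the main mitochondrial deacetylase, averaged 706 in TAC DKO and 875 in TAC CTL, against 1168 in sham DKO and 1316 in sham CTL hearts, and fell by 0.73 in DKO (adjusted p = 6.08e-06) and 0.59 in CTL hearts (adjusted p = 0.000124). With median centring the TAC calls over all probes changed in balance as well, to 204 higher and 4166 lower in DKO hearts and 186 higher and 3848 lower in CTL hearts, against 1116 higher and 1934 lower in DKO and 798 higher and 1541 lower in CTL hearts with quantile normalization. The probes in the top 10% by mean intensity had a median shift that differed with the scaling, and shifted by -0.36 in both genotypes with median centring and by 0.12 in DKO and 0.11 in CTL hearts with quantile normalization.

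The 5 genes whose log2 values were most like those of *Bdh1* over the 20 arrays were *Rasl10b* (r = 0.93), *Neurl1a* (r = 0.93), *Evi5l* (r = 0.92), *Mtor* (r = 0.90) and *Mapkap1* (r = 0.89), out of 7894 genes above background. Spearman's rho was 0.84, 0.92, 0.89, 0.93 and 0.84 in the same order. The 20 arrays fall into 4 groups and 2 sets, so these values follow the group means in part and are a description without a p. *Mtor* encodes a nutrient-sensing kinase and *Mapkap1* a subunit of its second complex. *Neurl1a*, a ubiquitin ligase, averaged 167 in TAC DKO and 219 in TAC CTL, against 105 in sham DKO and 141 in sham CTL hearts, and its genotype difference after TAC was -0.38 on the log2 scale (adjusted p = 0.137). *Rasl10b*, a small GTPase of the Ras family, averaged 226 in TAC DKO and 236 in TAC CTL, against 160 in sham DKO and 202 in sham CTL hearts. After the 4 group means were taken out, the same 5 genes correlated less with *Bdh1*. They had been picked over the same arrays, so the values that remain are not independent of that choice. Their r was 0.76 for *Rasl10b*, 0.63 for *Neurl1a*, 0.68 for *Evi5l*, 0.54 for *Mtor* and 0.74 for *Mapkap1*. Other genes then led the list: *Pkdcc* (r = 0.82), *Aars* (r = 0.79), *Guk1* (r = 0.79), *Dpp3* (r = 0.78) and *Cacna2d1* (r = 0.78).

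**Figure D4:**
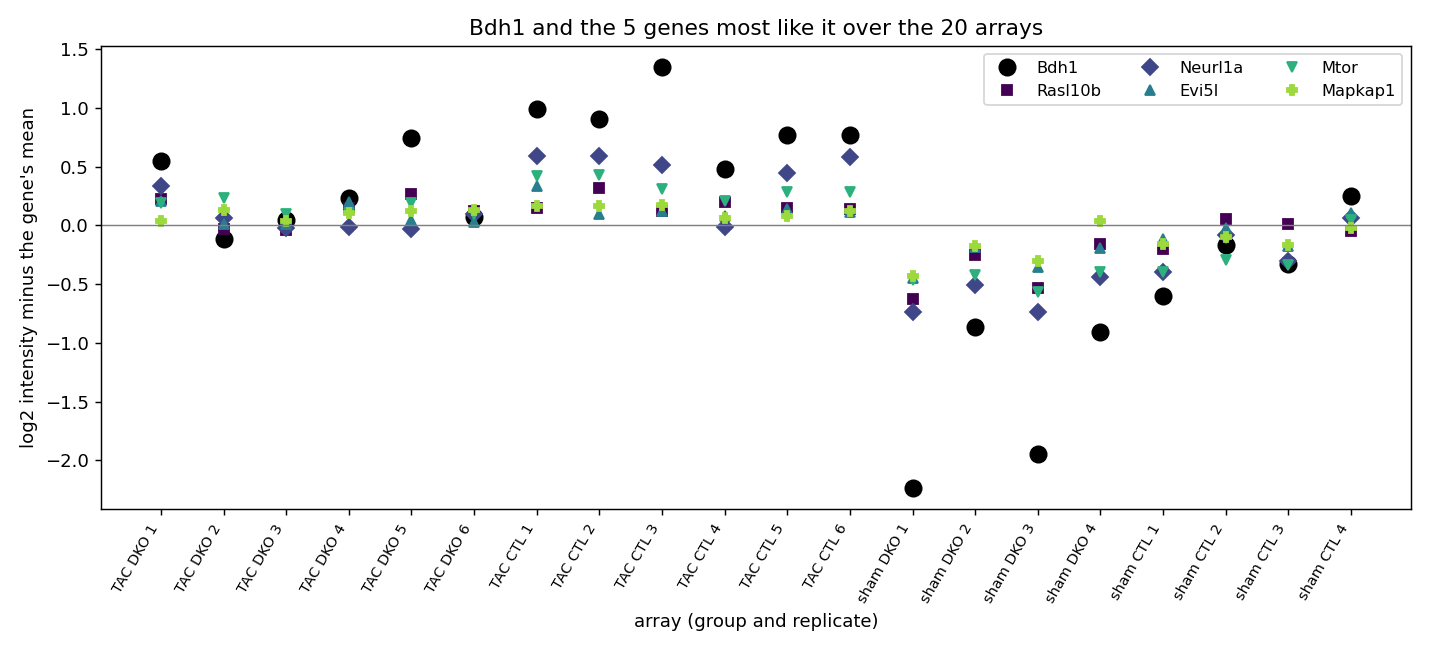
Log2 intensity minus each gene's mean over the 20 arrays (y axis) for *Bdh1* and the 5 genes most like it, by array (x axis, group and replicate). All 6 genes had their lowest group mean in sham DKO hearts, where *Bdh1* read 151, 391, 185 and 378, and *Bdh1* had the widest log2 range of the 6.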

How the data were processed

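Ventricular RNA of 20 mice was hybridised to Illumina bead chips. The authors processed the arrays in GenomeStudio (2010.3 in the submitters' processing notes), and the deposited values are linear intensities. How GenomeStudio corrected for background and normalized is not stated in what was read. Sorted values were equal (tolerance 0.2%) for at least 97.5% of probes among sham arrays and 99.9% among TAC arrays, and for at most 0.413% between the sets, so each set had been quantile normalized apart. The deposited medians were 47.5 (sham) and 58.6 (TAC), and TAC exceeded sham by a median of 0.29 (log2).

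From there, intensities were log2 transformed without an offset and quantile normalized over all 20 arrays. All probes entered a limma model (3.58.1, R 4.3.3) of 4 group means (16 residual and 6.64 prior degrees of freedom), and p-values were adjusted over all 45281 probes of a comparison. Rose, fell and passed mean an adjusted p under 0.05, and called adds a fold over 1.5. The same code was tested on simulated data. Probes were named through the platform annotation, updated by gene identifier for 34807 probes; 34885 name 1 gene, 18 several and 10378 none. Group means refer to linear values, and fold changes to the model's log2 coefficients. The text names all probes of the 5 genes, of each list up to 6 passing genes with the largest change, and the 5 genes most like *Bdh1* by each measure. The genes and lists were chosen with earlier results of these data known. List genes with no probe named for them were not analysed here. Markers of cardiomyocytes, atria, skeletal muscle, fibroblasts, endothelium, smooth muscle, leukocytes, adipocytes and red blood cells were summed per array. In sham hearts only the smooth muscle and adipocyte sums did not overlap between genotypes. Replicates are separate mice.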

Additional observations from a re-analysis of the deposited data

How the results depend on the processing

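The lower *Bdh1* value in TAC DKO than in TAC CTL hearts kept its direction and stayed above the threshold in all 29 alternatives, with log2 differences from -0.67 to -0.35 under other processing and an adjusted p from 0.124 to 0.596. *Bdh2* in both genotypes and *Acat1* in CTL hearts passed for TAC in all 30 settings. The mean of the 2 *Bdh1* probes, of which the dimmer is near background, gave 0.79 for TAC in DKO hearts, 0.46 for TAC in CTL hearts and -0.67 for genotype in sham hearts, and median centring gave 0.61 for TAC in CTL hearts. The number of called genes among *Bdh2*, *Oxct1*, *Acat1* and *Slc16a1* became 1 for TAC in CTL hearts with median centring. For TAC in DKO hearts it became 2 with the replicate block and 3 without a fold minimum, and 1 to 2 when single arrays were left out (2 without TAC DKO replicate 6). The TAC effect on *Oxct1* reversed with median centring, to -0.20 (brighter probe) and -0.15 (dimmer probe) in DKO and to -0.22 and -0.32 (adjusted p = 0.0224) in CTL hearts, and with the deposited values the dimmer probe gave -0.019 in CTL hearts; the cause was not tested. In DKO hearts the brighter *Oxct1* probe passed in 21 of 30 settings and the dimmer in 24 of 29. The genotype difference of *Bdh2*, close to 0, reversed after TAC when arrays were left out (-0.10 to 0.13) and in sham hearts with array weights (-0.021) or when arrays were left out (-0.035 to 0.051).

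The labels do not say whether equal replicate numbers mark a pairing or a shared batch, and this was not settled. The deviations of same-numbered arrays correlated from -0.19 to 0.38 between TAC DKO and TAC CTL (over 0.1 in 4 of 6 pairs) and from 0.01 to 0.22 between sham DKO and sham CTL (2 of 4 pairs). The most alike CTL array had the same number for 3 of 6 TAC DKO and 2 of 4 sham DKO arrays. Between TAC and sham arrays this held for 1 of 4 numbers in CTL and 0 of 4 in DKO hearts. With the replicate number as a block, 70 probes were called after TAC against 65 without it, and 3564 against 3050 for TAC in DKO hearts, 2730 against 2339 for TAC in CTL hearts and 56 against 46 in sham hearts. Low signal limits *Slc16a1*, the dimmer *Bdh1* probe, *Bdh2* in sham hearts and, with means just over the limit, *Acat1* in TAC hearts.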

Other observations

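Over the 20 arrays, the brighter *Oxct1* probe followed *Bdh1* with a Pearson correlation of 0.72 (Spearman 0.73), *Bdh2* with 0.63 (0.59) and *Acat1* with -0.43 (-0.51). After the 4 group means were taken out, these values were 0.27 (0.42) for *Oxct1*, -0.04 (-0.15) for *Bdh2* and -0.07 (-0.13) for *Acat1*. The arrays of a group share their operation and their normalization set, and the values are given as a description.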
